A study of Caenorhabditis elegans with 4 samples.

Results

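The peaks described here are AMA-1 binding sites on the arms of chromosome V in Caenorhabditis elegans embryos. A peak was a member when its midpoint lay on chromosome V below 5.9 Mb (left arm) or above 16.55 Mb (right arm) in WormBase WS220 coordinates. The rule gave 148 of 2672 peaks in replicate 1, with 101 on the left and 47 on the right arm. It gave 218 of 3818 peaks in replicate 2, with 120 on the left and 98 on the right arm. The series-level list held 1021 of 18518 peaks there, with 579 on the left and 442 on the right arm. The arms of chromosomes I, II, III and IV served as the background, with 872, 1294 and 6145 peaks in the same order of lists. The arm boundaries of those 4 chromosomes are remembered literature values, rounded to 50 kb. No measured score entered the rule.

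Chromatin immunoprecipitation and sequencing (ChIP-seq) had been done on wild-type embryos of strain N2, labelled as mixed embryos, with a tag EE in the sample titles that the labels do not explain, from a mixed Male and Hermaphrodite population at 20 °C. The antibody, SDQ2357-AMA1, was an affinity-purified rabbit polyclonal against AMA-1. The labels name 4 samples, 2 of ChIP DNA and 2 of input DNA, all of the same genotype and stage, so the design holds no treatment. Read depth is unknown and the input samples were not analysed here. Nothing in the labels tells whether the replicates were separate cultures, so their spread may be technical.

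AMA-1 is the large catalytic subunit of RNA polymerase II, which transcribes protein-coding genes and many small RNAs, and its ChIP signal marks DNA that carried the polymerase. In C. elegans the autosome arms recombine more often than the centres, hold more repeats, and are marked by methylated histone H3 lysine 9 and contact with the nuclear envelope. The arms of chromosome V are known for large clusters of serpentine chemoreceptor genes, many of which are used in only a few neurons. No gene annotation of this build was used, so the regions below are given by position, without gene names or sequence.

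Polymerase peaks were sparser on the V arms than on the other autosomal arms, at 0.52 times their density in both replicates. The V arms held 14.4 peaks per Mb in replicate 1 (95% Poisson interval 12.2 to 17.0) and 21.3 in replicate 2 (18.5 to 24.3). The other autosomal arms held 27.6 peaks per Mb in replicate 1 (25.8 to 29.5) and 41.0 in replicate 2 (38.8 to 43.3). The ratio of V to the other arms was 0.523 in replicate 1 (0.436 to 0.623) and 0.519 in replicate 2 (0.448 to 0.600), or 0.521 ± 0.0027 (SD, n = 2). The replicates were less alike for each arm alone. Relative to the other left arms, the V left arm stood at 0.652 in replicate 1 (0.520 to 0.812) and 0.483 in replicate 2 (0.394 to 0.587), or 0.568 ± 0.120 (SD, n = 2). Relative to the other right arms, the V right arm stood at 0.371 (0.269 to 0.503) and 0.567 (0.453 to 0.703), or 0.469 ± 0.138 (SD, n = 2). The arms moved in opposite directions between replicates, so the small SD of the pooled ratio does not hold for either arm. In the series-level list, which adds no replicate, the densities were 99.6 and 194.6 peaks per Mb and the ratio was 0.512 (0.479 to 0.547). All 3 intervals lay below 1. These intervals reflect counting error alone, and peaks near each other are not independent. With 1 condition and 2 replicates the design allows no test between samples, so no p-values are given.

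Covered length gave the same direction. Replicate 1 peaks covered 5.21% of the V arms and 9.56% of the other arms, and replicate 2 peaks covered 9.10% and 16.2%.

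The size of the deficit depended on which autosome it was set against. The mean ratio over the 2 replicates was 0.427 against the arms of I, 0.607 against II, 0.449 against III and 0.655 against IV. Among single arms, the right arm of IV came closest, with 18.2 peaks per Mb in replicate 1 (14.5 to 22.6) and 23.5 in replicate 2 (19.2 to 28.4). Those intervals overlap the ones of the V left arm. The densest was the right arm of III, with 40.3 and 50.2 peaks per Mb.

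The centre of chromosome V was denser than its arms. It held 23.8 peaks per Mb in replicate 1 and 31.6 in replicate 2, which put the arms at 0.606 (0.491 to 0.745) and 0.672 (0.564 to 0.800) of the centre. Median peak width in the centre was 3848 bp in replicate 1 and 3749 bp in replicate 2.

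**Figure D1:**
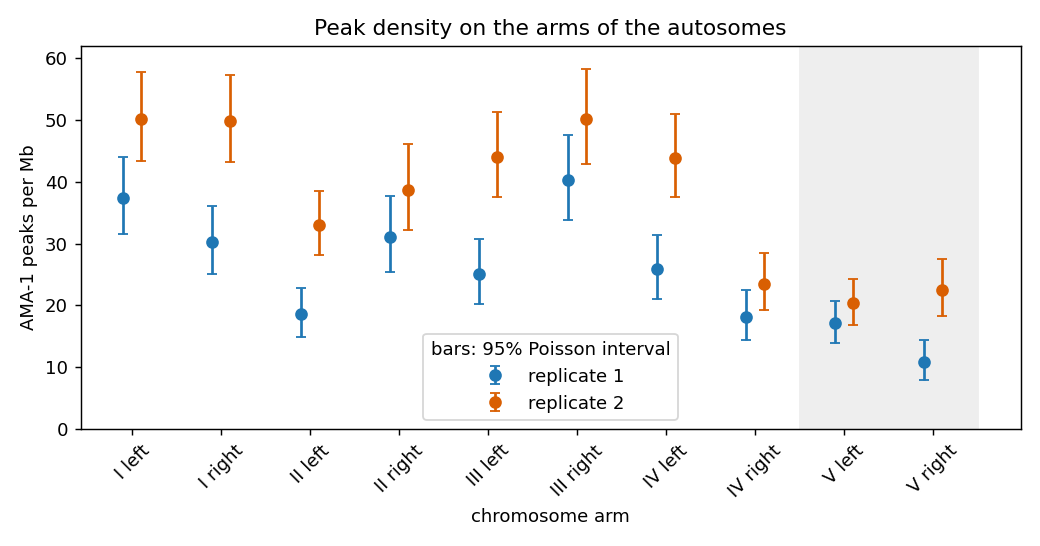
AMA-1 peaks per Mb on each of the 10 autosomal arms (horizontal axis) in replicate 1 (blue) and replicate 2 (orange); bars are 95% Poisson intervals and grey shading marks the V arms. Both V arms lie at the low end in each replicate, beside the right arm of IV at 18.2 and 23.5, and the points of the V right arm are further apart (10.8 and 22.5) than those of the V left arm (17.1 and 20.3).

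By peak number, the replicates disagreed on which V arm was denser. The left arm had 17.1 peaks per Mb in replicate 1 (13.9 to 20.8) against 10.8 on the right arm (7.94 to 14.4), a ratio of 1.58 (1.11 to 2.29). In replicate 2 the left arm had 20.3 (16.9 to 24.3) and the right arm 22.5 (18.3 to 27.5), a ratio of 0.902 (0.685 to 1.19). The mean over replicates was 1.24 ± 0.482 (SD, n = 2), so the left-to-right difference was within the spread between replicates. The series-level list gave 0.965 (0.851 to 1.10). By covered length the left-to-right ratio was 2.12 for replicate 1 peaks, 1.02 for those of replicate 2 and 1.13 for series-level peaks, so that measure showed no opposite signs.

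Among peaks found in the other replicate, the left-to-right ratio was 1.46 in replicate 1 and 1.36 in replicate 2. These are the same sites seen from each list, so the like values carry no weight on the disagreement, and the alternative was chosen after the values were seen. The ratio of left to right in replicates 1 and 2 was 1.24 and 1.00 on chromosome I, 0.597 and 0.854 on II, 0.624 and 0.878 on III, and 1.42 and 1.87 on IV. Of the 5 autosomes, V was the 1 on which the ratio lay above 1 in replicate 1 and below 1 in replicate 2. The replicate 2 interval includes 1 on V (0.685 to 1.19) and on I (0.820 to 1.23), so a reversal particular to V is not shown.

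On the right arm of V, density was lowest beside the centre and highest at the chromosome end. Over bins of 1 Mb from the centre boundary outward, replicate 1 had 4, 8 and 10 peaks, followed by 25 peaks in the last 1.35 Mb. Replicate 2 had 9, 20 and 19 peaks in the same bins and 50 in the last. Per Mb the last bin held 18.5 peaks in replicate 1 (12.0 to 27.4) and 37.1 in replicate 2 (27.5 to 48.9). The first bin held 4 (1.09 to 10.2) and 9 (4.12 to 17.1), so the intervals of the first and last bins did not overlap in either replicate. That first bin takes in the stretches of 697.8 kb and 145.0 kb without a replicate peak described below. Its low density and those stretches are not independent.

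The left arm had no such trend. From the boundary outward its bins held 16, 29, 9, 11, 23 and 13 peaks in replicate 1 and 26, 29, 9, 14, 24 and 18 in replicate 2, with the last bin 0.9 Mb long. Both replicates had their maximum between 1 and 2 Mb from the boundary and their minimum between 2 and 3 Mb.

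When an arm was divided into an outer and an inner section of equal length, the outer section of the V right arm held 1.76 times the peaks of the inner one in replicate 1 (0.942 to 3.41) and 2.06 times in replicate 2 (1.33 to 3.25). In replicate 1 that interval includes 1. The left arm gave 0.870 (0.576 to 1.31) and 0.875 (0.600 to 1.27). Other right arms also held more peaks in the outer section. The right arm of I gave 1.24 (0.854 to 1.81) and 1.50 (1.12 to 2.02), that of II 1.04 (0.692 to 1.57) and 1.19 (0.827 to 1.72), and that of III 1.46 (1.03 to 2.10) and 1.07 (0.786 to 1.46). Their intervals overlap those of the V right arm in each replicate. The right arm of IV went the other way, at 0.464 (0.280 to 0.752) and 0.514 (0.334 to 0.779). These comparisons along the arm were chosen after the values were seen.

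**Figure D2:**
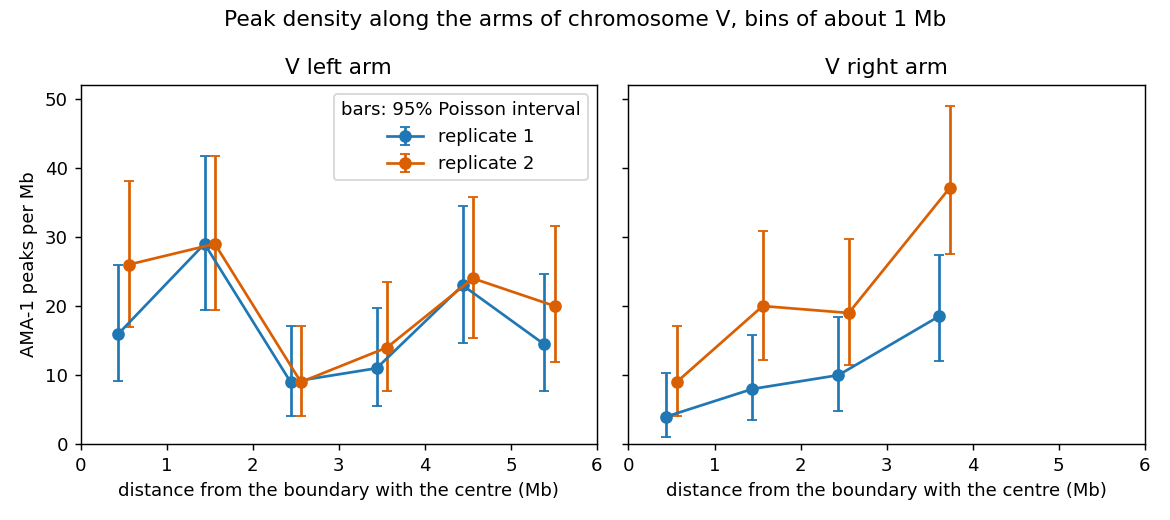
AMA-1 peaks per Mb against distance from the boundary with the chromosome centre (Mb) on the V left arm (left panel) and the V right arm (right panel), in replicate 1 (blue) and replicate 2 (orange); bars are 95% Poisson intervals. On the right arm replicate 1 goes from 4 to 18.5 and replicate 2 from 9 to 37.1 peaks per Mb, while on the left arm both replicates dip to 9 in the bin between 2 and 3 Mb.

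Most replicate 1 peaks on the V arms were also present in replicate 2, while about as many replicate 2 peaks were absent from replicate 1 as were present in it. Of the 148 replicate 1 peaks, 128 overlapped a replicate 2 peak by at least 1 bp, which is 86.5% (Wilson interval 80.0 to 91.1) against 86.8% of all replicate 1 peaks. Of the 218 replicate 2 peaks, 114 overlapped a replicate 1 peak, which is 52.3% (45.7 to 58.8) against 52.6% of all replicate 2 peaks. Both shares were close to those of the whole lists. On the other autosomal arms they were 83.3% and 46.4%.

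The V arms differed from each other in how much of replicate 2 recurred in replicate 1. On the left arm 74 of 120 replicate 2 peaks were found in replicate 1, or 61.7% (52.7 to 69.9), and on the right arm 40 of 98, or 40.8% (31.6 to 50.7). These intervals do not overlap, but replicate 1 had only 47 peaks on the right arm, which limits the overlaps there. Left and right arms also stood apart elsewhere, at 52.8% and 39.5% on I, 40.7% and 56.7% on II, 41.1% and 48.8% on III, and 42.7% and 54.7% on IV. The share on the V right arm was thus like those of the right arm of I and the left arms of II and III. In the other direction, 84.2% (75.8 to 90.0) of left-arm and 91.5% (80.1 to 96.6) of right-arm peaks of replicate 1 were found, and these intervals do overlap. After merging overlapping peaks of both replicates into regions, the left arm had 73 regions with both replicates, 16 with replicate 1 only and 46 with replicate 2 only. The right arm had 40, 4 and 58. As shares these were 54.1%, 11.9% and 34.1% on the left and 39.2%, 3.92% and 56.9% on the right arm. On the other autosomal arms they were 41.5%, 10.2% and 48.3%.

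Replicate 2 peaks with no replicate 1 partner had lower scores. The authors' score has no stated scale, so it is used only as a percentile within its list, where the weakest peak is at 0 and the strongest at 100. The median percentile was 69.5 for V-arm replicate 2 peaks with a partner and 31.3 for those without. These medians were 68.7 and 28.4 on the other arms and 70.2 and 29.4 over the whole list, so the contrast is not particular to V. Of the 104 V-arm peaks without a partner, 8 (7.69%) lay over 100 kb from any replicate 1 peak, against 6 of 693 (0.866%) on the other arms. The V arms also had fewer peaks per Mb, which by itself puts neighbours further apart.

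**Figure D3:**
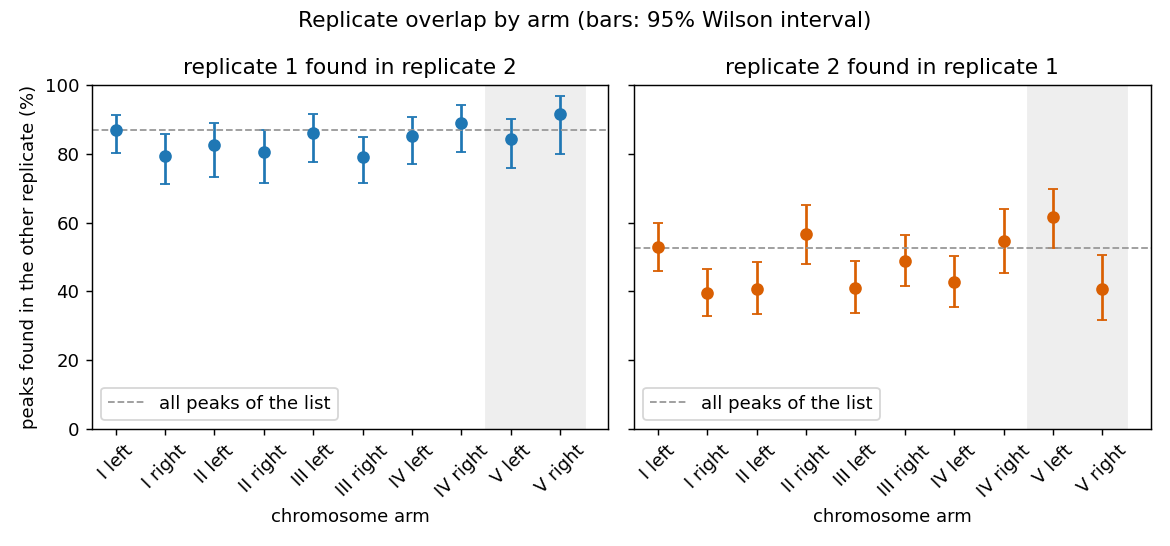
Share of peaks (%) that overlapped a peak of the other replicate on each autosomal arm, for replicate 1 (left panel) and replicate 2 (right panel); bars are 95% Wilson intervals, the dashed lines give all peaks of the list (86.8% and 52.6%) and grey shading marks the V arms. In the right panel the V left arm is at 61.7% and the V right arm at 40.8%.

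The series-level list was set against both replicates. The overlaps on the right arm are limited by the 47 peaks of replicate 1 there, so the arm split restates the replicate difference. Of its 1021 V-arm peaks, 288 overlapped a peak of both replicates, or 28.2% (25.5 to 31.0), against 33.2% of the whole list and 26.2% on the other autosomal arms. A further 304 overlapped neither replicate, or 29.8%, against 25.4% of the whole list and 29.5% on the other arms. The share with both replicates was 34.9% (31.1 to 38.9) on the left and 19.5% (16.0 to 23.4) on the right arm. The share with replicate 2 only was 28.2% (24.6 to 32.0) on the left and 50.7% (46.0 to 55.3) on the right. Series-level peaks with both replicates stood at a median percentile of 80.2 and a median width of 836 bp, and those with neither at 30.0 and 240.5 bp. On the other arms the like values were 76.8 and 770.5 bp with both, and 29.8 and 246.5 bp with neither.

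Where each replicate had a single peak at a site, their score ranks went together. The V arms held 101 such sites, with a rank correlation (Spearman rho) of 0.70 and a Pearson correlation of log10 scores of 0.67, and the other arms held 489 sites with a rho of 0.65. The rho was 0.78 over the 64 left-arm sites and 0.56 over the 37 right-arm sites. These values are across sites of 2 libraries and describe those libraries only. Replicate scores pile up at a ceiling of 3100, which few peaks exceed, so the strongest sites are tied. Replicate 2 had the wider peak at 84 of the 101 sites (83.2%), against 79.8% on the other arms and 77.4% over all chromosomes. Wider replicate 2 peaks were thus not particular to V. Over all such sites, the median width ratio of replicate 2 to replicate 1 was 1.11 on the V left and 1.70 on the V right arm. It was 1.17 on the other left arms, 1.24 on the other right arms and 1.56 on the right arm of IV alone.

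**Figure D4:**
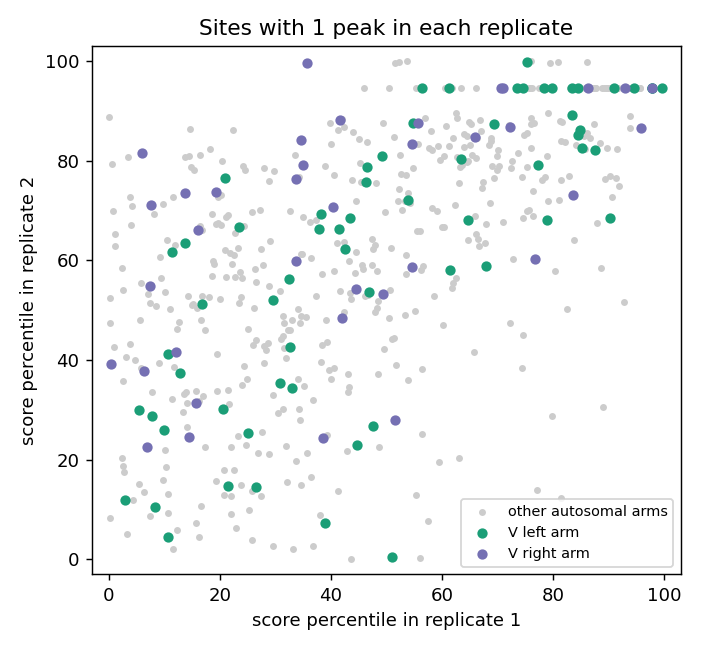
Score percentile in replicate 1 (horizontal axis) and replicate 2 (vertical axis) at sites with 1 peak in each replicate; green points are the V left arm, purple points the V right arm and grey points the other autosomal arms. The 101 V-arm points lie within the grey cloud, and the row near a percentile of 94.5 in replicate 2 holds peaks tied at the score ceiling.

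Scores of V-arm peaks ranked like those of the other arms, and median widths were somewhat larger than on those arms pooled. Their median percentile was 43.9 in replicate 1 and 48.8 in replicate 2, against 44.7 in both replicates on the other arms. The strongest 10% of all scores took in 10 of 148 V-arm peaks in replicate 1 (6.76%, interval 3.71 to 12.0) and 23 of 218 in replicate 2 (10.6%, 7.13 to 15.3). On the other arms these shares were 8.94% and 8.50%, inside the V-arm intervals. Median width was 2777.5 bp in replicate 1 and 3029.5 bp in replicate 2 on V, against 2629 and 2823 bp on the other arms. In replicate 1 the left-arm median of 3067 bp exceeded the right-arm median of 2195 bp, while in replicate 2 they were 3105 and 3011 bp. The right-arm median in replicate 1 was the lowest of any autosomal arm. Single arms elsewhere had like medians, with 3084 and 3042 bp on the left arm of II and 2868 and 3014 bp on the right arm of IV. Medians of the whole lists were larger, at 3286.5 and 3311 bp, so larger widths were not particular to V.

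The strongest left-arm region found in both replicates lay at 1803177 to 1807724, with a replicate 1 score of 3122.78 (percentile 99.7), a replicate 2 score at the ceiling, and the highest series-level score of any V-arm peak, 173.97. Next came 1867432 to 1876894 and 722581 to 728463, both at the ceiling in each replicate, with series-level scores of 151.42 and 122.48. The region at 3771550 to 3778557 had a replicate 1 score of 2612.64 and ended where a peak-free stretch of 352.8 kb began. The last, at 1468843 to 1481318, was 12476 bp wide with a replicate 1 score of 1795.17. Of these 5 regions, 4 lay closer to the chromosome end than the region at 3771550.

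On the right arm the strongest shared region was at 19518717 to 19523471, at the ceiling in both replicates and with a series-level score of 94.35. It was followed by 19961763 to 19966724, with a replicate 1 score of 2141.01, and 18718872 to 18725307, where 2 replicate 1 peaks met 1 wide replicate 2 peak. The other two lay at 19994830 to 20003673 and 20844768 to 20851574, the latter with the highest series-level score of the right arm, 133.97. Each arm had 5 shared regions with a mean percentile over 90, of 73 on the left and 40 on the right. The like share on the other arms is not given here, so these counts are not read as high or low.

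The broadest replicate domain of the V arms was on the left arm. It spanned 1569562 to 1586638 in replicate 1 (17077 bp, percentile 90.3) and 1568272 to 1587475 in replicate 2 (19204 bp, percentile 68.4). A peak-free stretch of 103.1 kb followed it. Another broad domain spanned 4514877 to 4529993 in replicate 1 (15117 bp) and 4514751 to 4530455 in replicate 2 (15705 bp), and replicate 2 had an adjoining peak of 16071 bp. The percentiles of this domain were 46.8 and 53.5, in the middle of both lists. A region of 12017 bp at 3434297 to 3446313 was present in replicate 1 only and lay between peak-free stretches of 174.4 and 140.1 kb.

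Long stretches with no replicate peak took up much of the V arms. A long stretch was defined as at least 100 kb without a peak of either replicate. The V arms had 22 of them, which took up 4.98 Mb or 48.6% of the length. The left arm had 12 (42.5%) and the right arm 10 (56.8%). The other autosomal arms together had 36 with their midpoint on an arm, which took up 18.0% of the length. With the parts of boundary-crossing stretches that reach into an arm counted as well, the share was 18.4%, and the shares below are counted in that way. No such part was added on V in the 48.6%. The share on V was higher in each replicate alone, with 67.9% against 37.8% in replicate 1 and 52.2% against 20.1% in replicate 2. With a minimum of 200 kb it was 31.6% against 7.31%, and in the series-level list 30.7% against 11.7%.

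Single arms varied widely. The share was 2.69% on the left and 16.9% on the right arm of I, 29.2% and 13.5% on II, and 17.3% and 0% on III. It was 6.92% on the left arm of IV and 49.5% on its right arm, so the right arm of IV lay between the left and right arms of V. Of the 5 longest stretches on all autosomal arms, 4 were on V, and of the 10 longest, 7 were. A lower peak density gives longer gaps, so the stretches and the density are not independent measures.

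**Figure D5:**
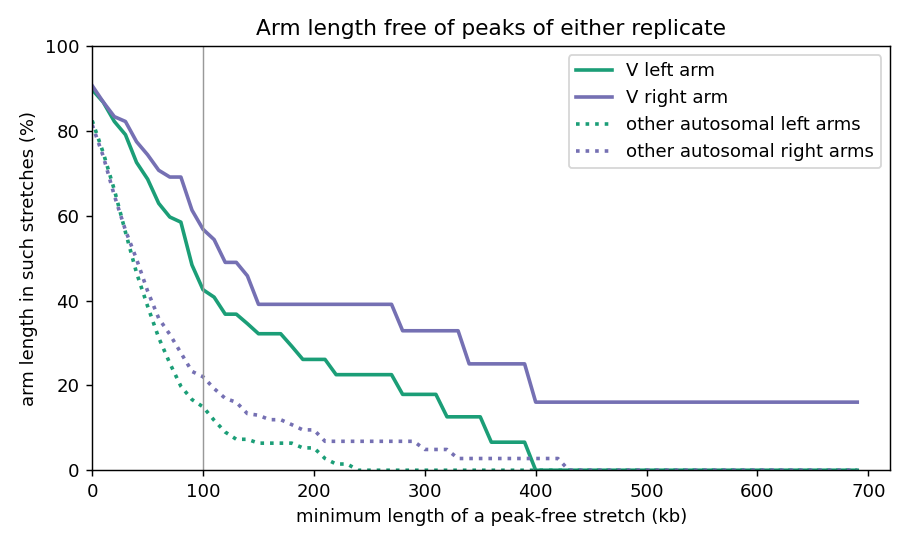
Share of arm length (%) that lies in stretches free of peaks of either replicate, against the minimum length of a stretch (kb), for the V left arm (green line), the V right arm (purple line) and the other autosomal arms (dotted lines); the vertical line marks the 100 kb minimum. At 100 kb the V arms stand at 42.5% (left) and 56.8% (right), and beyond 421.2 kb only the V right arm keeps a stretch.

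The longest stretch was on the right arm, from 16818546 to 17516342, with a length of 697.8 kb. Others on that arm were 392.2 kb at 18115589 to 18507817, 339.2 kb at 17539887 to 17879078, 270.8 kb at 19643866 to 19914700 and 146.9 kb at 19335992 to 19482869. The region that ended the longest stretch, at 17516343 to 17519595, was present in replicate 2 only. On the left arm the longest were 390.0 kb at 2799910 to 3189916, 352.8 kb at 3778558 to 4131346, 312.1 kb at 2282393 to 2594529, 274.0 kb at 364779 to 638816 and 212.2 kb at 5056813 to 5268995. Of these, the stretch of 352.8 kb was bordered on both sides by regions with peaks of both replicates, at 3771550 to 3778557 and 4131347 to 4138448.

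The series-level list, which was far longer, left these stretches sparse but not empty. It had 96 peaks in the V-arm stretches, or 19.3 per Mb (15.6 to 23.5), against 175.5 per Mb (164.4 to 187.2) on the rest of the V arms. The ratio was 0.110 (0.0881 to 0.136), close to the 0.107 (0.0903 to 0.127) on the other autosomal arms. Peaks in the stretches were weaker and narrower, with a median percentile of 31.4 against 54.2 and a median width of 269 against 413 bp. Series-level scores at or above percentile 75 made up 2.08% of the peaks inside and 28.9% of those outside. On the other arms these contrasts were 26.8 against 51.5, 264.5 against 386 bp, and 1.41% against 25.1%. Stretches hold no replicate peak by definition, and V-arm series-level peaks with neither replicate had a median percentile of 30.0. Sparse and weak series-level peaks in the V-arm stretches are therefore in part set by the definition. The stretches at 1876895 to 2059465 (182.6 kb, left arm) and 16599103 to 16744091 (145.0 kb, right arm) held no peak of any list. The first of these began at the end of the left-arm region at 1867432 to 1876894.

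One run of series-level peaks inside the longest stretch was regularly spaced. From 17115526 to 17131911 lay 13 peaks in 16.4 kb, with no replicate peak. Starts of neighbouring peaks were a median of 988 bp apart, and 8 of the 12 spacings fell between 900 and 1100 bp, against 8.43% of the spacings over all series-level peaks of the V arms. Scores were low, from 1.35 to 5.32, with a median percentile of 2.40. The run was chosen after its values were seen. As background, the 5S ribosomal RNA and SL1 spliced leader genes of C. elegans form a tandem array on chromosome V. Whether the run lies in that array, and how reads from repeats were placed, is not given in the sources used here and was not tested.

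Outside the long stretches the V arms were closer to the other arms. There they held 28.1 peaks per Mb in replicate 1 and 41.4 in replicate 2, against 33.7 and 50.0 on the other arms. The ratio was 0.833 (0.695 to 0.993) in replicate 1 and 0.827 (0.713 to 0.956) in replicate 2. The stretches hold no replicate peak by definition and took up more of the V arms, 48.6% of the length against 18.0%. Leaving them out therefore raises the ratio by arithmetic, so the move towards 1 restates those shares. This comparison was chosen after the values were seen. The left-to-right ratio there was 1.19 (0.835 to 1.72) in replicate 1 and 0.679 (0.515 to 0.895) in replicate 2, so the replicates still lay on opposite sides of 1.

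Regions beside the long stretches had a lower share with both replicates than all V-arm regions, which include them. The intervals of these sets overlap, but the sets are not separate, so no conclusion is drawn from that overlap. Of 42 regions beside a stretch, 15 had peaks of both replicates, or 35.7% (23.0 to 50.8), against 113 of all 237 (47.7%, 41.4 to 54.0). Their median width was 2755 bp, against 3008 bp for all.

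Islands of peaks were fewer per Mb on the V arms (0.976) than on the other arms (2.53), and most were on the right arm. An island was defined as a run of at least 5 regions with gaps of at most 10 kb. Of 237 V-arm regions, 58 lay in 10 islands, or 24.5% (19.4 to 30.3), against 35.7% (33.2 to 38.2) in 80 islands on the other arms. The right arm had 43 of its 102 regions in 7 islands, or 42.2% (33.0 to 51.9), and the left arm 15 of 135 in 3 islands, or 11.1% (6.85 to 17.5). On the other autosomes the right arms together stood at 42.0% (38.4 to 45.8) and the left arms at 29.9% (26.7 to 33.2). By this share of merged regions the V right arm was close to the other right arms, and the lower share on V lay on the left arm. Per Mb the V right arm was low as well, with 1.61 islands against 2.82 on the other right arms. Islands took up 6.50% of its length, against 11.4% there. Single arms elsewhere came close to the V arms. The right arm of IV had 0.887 islands per Mb and 26.3% (19.1 to 35.1) of its regions in islands. The left arm of II had 25.8% (20.0 to 32.7) of its regions in islands. Fewer peaks per Mb by themselves give fewer such runs, so islands and density are not independent measures. Regions with no neighbour within 10 kb made up 26.6% on V and 17.0% on the other arms. The islands on the V right arm rest on replicate 2. With replicate 1 alone the share was 0% on the right and 10.9% on the left arm, so there the right arm was the lower. With replicate 2 alone it was 40.8% on the right and 8.33% on the left arm. When weaker peaks, below the median score of their list, were left out, the V arms had the larger share, 11.0% against 7.75%.

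The largest right-arm islands, at 17928956 to 17978679 and 18023376 to 18080065, had 8 regions each. The latter was 56.7 kb long, with 5 replicate 1 peaks, 8 replicate 2 peaks and 33 series-level peaks, and 73.9% of it was covered. The former had 3 replicate 1 and 6 replicate 2 peaks, and 1 of its 8 regions had both. The 2 islands together lay between the stretches of 339.2 and 392.2 kb. Further out were islands at 20233580 to 20276610 (7 regions), 20382093 to 20421132 (5 regions, all with both replicates) and 20826436 to 20860381 (5 regions). The last of these held the region with the series-level score of 133.97. Peaks of the island at 20382093 had a median percentile of 34.6 in replicate 1 and 70.6 in replicate 2.

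The most covered V-arm island was on the left arm at 4492069 to 4541964. It was 49.9 kb long and 88.0% of it was covered, with 5 regions that all had both replicates, 31 series-level peaks, and the broad domain that spanned 4514877 to 4529993 in replicate 1. It began where a stretch of 117.4 kb ended. The left-arm island at 4801077 to 4836985 had 3 of 5 regions with both replicates. The island at 184405 to 209912 had none, and its peaks were weak, with median percentiles of 12.8 and 16.3.

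In windows of 100 kb the V arms were unevenly filled. Of 101 windows, 43.6% held no replicate 1 peak and 31.7% no replicate 2 peak, against 15.1% and 8.36% of the 311 windows on the other arms. The fullest V-arm window held 7 peaks in replicate 1 and 9 in replicate 2. The variance of the peak number divided by its mean was 2.25 in replicate 1 and 2.48 in replicate 2 on V, and 1.88 and 1.75 on the other arms pooled. Single arms elsewhere reached like values, with 2.43 on the left arm of III in replicate 1 and 2.95 on the right arm of IV in replicate 2. The right arm of IV had 33.3% of its windows empty in replicate 1 and 28.9% in replicate 2.

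Peaks nearest the arm boundaries were as follows. At the left boundary the nearest replicate 1 peak on the arm side lay 57.3 kb away at percentile 87.5, and the nearest on the centre side 43.8 kb away at percentile 4.04. In replicate 2 these distances were 50.6 and 43.7 kb. At the right boundary the nearest arm peak lay 43.8 kb away in replicate 1 and 43.9 kb in replicate 2, and the nearest centre peak 179.5 and 4.67 kb away.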

How the data were processed

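AMA-1 ChIP-seq of N2 mixed embryos was analysed from 3 peak lists, 1 per ChIP replicate and 1 for the series. The submitters' processing notes name BWA and the build ce10. Coordinates are WormBase WS220, and the source column names MACS (replicate lists) and MACS v2 (series-level list), per the file headers and columns. The sources used here give no thresholds or controls, nor how the series-level list was made. The deposited score of each peak is the authors' own value on an unstated scale, with a ceiling at 3100 in the replicate lists that only a few peaks exceed.

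From these lists, densities (peaks per Mb by midpoint), overlaps, regions, stretches and islands were computed with Python 3.11.15, numpy 2.4.6, pandas 2.3.3 and scipy 1.17.1. Chromosome length was the highest peak end over the lists. Arm boundaries of I to IV are literature values recalled and rounded to 50 kb, not checked against a file. Intervals are 95%: Poisson for densities, conditional binomial for ratios, Wilson for shares. No count of reads was at hand, so depth gives no precision here. The scripts were checked on the replicate lists, with overlaps planted in one of them and overlaps on chromosome V recounted directly. Simulated counts and a made-up island were used as well.

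Regions named are, per V arm, the 5 shared regions with the highest mean score percentile, the 5 longest stretches and the 5 islands with most regions, plus those said in the text to be chosen after their values were seen. The broad domains, the region of 12017 bp and the stretches without any peak were also chosen that way. The members and definitions were chosen with earlier results of these data known. Alternatives covered score, arm definition, chromosome tips, merging, overlap rule, gap and stretch lengths, the series-level list and each replicate alone.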

Additional observations from a re-analysis of the deposited data

How the results depend on the processing

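Of 67 alternative values, 8 of them added after seeing the data, 36 stayed within the spread of the main value and 31 moved beyond it. The spread was the SD of the 2 replicates or, for overlap shares, the Wilson interval of the main value. Where the main value is the mean of the 2 replicates, each replicate alone lies within that SD by arithmetic. On the log2 scale the SD was 0.0076 for the V density and 0.57 for the left-to-right ratio. These counts therefore do not measure robustness. The V arms were less dense than the other arms in 13 of 13 alternatives. On the log2 scale the main value was -0.94. It was -0.87 without peaks below the median score, -0.90 with the outer 33.3% at each end as arms, -1.04 without the outermost 0.5 Mb, -0.90 with peaks closer than 500 bp merged, -0.85 for covered bases and -0.97 in the series-level list. Against single autosomes it was -1.23 (I), -0.72 (II), -1.16 (III) and -0.61 (IV), and -0.27 without the long stretches. The left arm was denser than the right in 9 of 11 alternatives and less dense in the series-level list and without replicate 1. Most of these alternatives average the 2 replicates, so they carry the replicate 1 excess and are not separate evidence for a denser left arm. Replicate 2 stayed below 1 at equal list lengths (0.979, mean 1.24) and without the longest stretch of each arm (0.811, mean 1.07).

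Median width on V relative to the other arms was 0.09 on the log2 scale and above 0 in 7 of 7 alternatives: 0.13 without peaks below the median score, 0.050 with the outer 33.3% as arms, 0.17 without tips, 0.061 with merging and 0.041 in the series-level list. Replicate 2 peaks found in replicate 1 came to 41.7% when the midpoint had to lie inside the other peak. Series-level peaks found in both replicates came to 21.8% without peaks below the median score, 33.3% with the outer 33.3% as arms and 25.3% by midpoint. Asking for 1 replicate alone gave 32.3% to 66.1%, since fewer overlaps are then required.

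The share of V-arm length in long stretches was above that of the other arms in 8 of 8 alternatives. It was 70.7% with weaker peaks (below median score) removed, 30.7% in the series-level list, 71.0% for a minimum of 50 kb, 31.6% for 200 kb, and 52.2% to 67.9% with 1 replicate. The share of regions in islands was 11.0% without peaks below the median score, 4.22% for gaps of at most 5 kb, 40.5% for 20 kb, and 7.43% to 22.9% with 1 replicate. It was below that of the other arms in 6 of 7 alternatives, the exception being the one without peaks below the median score. Why these values moved was not tested, beyond the fewer peaks that score limits and single replicates leave. No paired analysis was possible because there is 1 condition and the input samples have no values here. Without read depth, an absent peak is not shown to be absence of polymerase.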
